A study of Homo sapiens with 5 samples.

Results

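The genes described here make actin itself and the core proteins that bind it. They are 10 of the 27189 genes quantified in each library. They were chosen by name and function and not by a cut on their level, but with earlier results of these data known. ACTB and ACTG1 encode the actin monomers. CFL1, PFN1, TMSB10 and TMSB4X encode proteins that bind monomers or take filaments apart. ACTN1, ACTN4, FLNA and FSCN1 encode proteins that tie filaments together. HT1080, a line grown from a human fibrosarcoma, was cultured for 24 h inside type I collagen from rat tail, at 2 mg per ml in every condition, and RNA was sequenced from the whole cell population. The low-density condition (LD) held 10 cells per mm3 with no cytokine added. The IL-6, IL-8 and RM conditions held the same density with recombinant IL-6, recombinant IL-8, or both together at a ratio of 5 to 2, and the high-density condition (HD) held 50 cells per mm3 with no cytokine added. The labels do not state genetic changes in these cells, and each condition was sequenced as 1 library, so the differences below have no replicate error beside them and no p-value.

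Actin exists in cells as free monomers and as filaments, and cells crawl or squeeze through collagen by adding monomers at the front and recovering them from older filaments. Profilin loads monomers onto growing ends, cofilin cuts and disassembles old filaments, and the small beta-thymosins hold monomers in reserve. Crosslinkers then set the architecture, with fascin packing filaments into straight bundles, alpha-actinin spacing them more loosely, and filamin joining them at angles.

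The members come in families whose RNAs are alike, so the sequences show how far a short read can tell them apart. The first 90 bases of the ACTB and ACTG1 coding sequences are shown as a sample of the differences by which a coding read can be assigned to 1 of the pair. Capitals mark the bases at which the pair differ, 17 within this stretch, and both run 5′ to 3′ from the start codon (GENCODE 29 transcripts).
ACTB: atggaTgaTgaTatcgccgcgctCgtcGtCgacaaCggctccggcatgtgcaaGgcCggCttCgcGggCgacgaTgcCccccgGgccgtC
ACTG1: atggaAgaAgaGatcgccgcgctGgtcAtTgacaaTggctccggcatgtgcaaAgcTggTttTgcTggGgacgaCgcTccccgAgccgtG
Over the whole coding sequence of 1128 bases, ACTB and ACTG1 differed at 99 bases and were 91.2% identical. The longest stretch with no difference was 59 bases, which is longer than a read of 50 bases. Of the 2207 windows of 50 bases in the whole ACTG1 transcript, 10 also occurred in ACTB. The coding sequences of the thymosins TMSB10 and TMSB4X are shown whole, because TMSB4X is the member whose level varied most among the low-density libraries. Capitals again mark the differing bases, 37 of 135.
TMSB10: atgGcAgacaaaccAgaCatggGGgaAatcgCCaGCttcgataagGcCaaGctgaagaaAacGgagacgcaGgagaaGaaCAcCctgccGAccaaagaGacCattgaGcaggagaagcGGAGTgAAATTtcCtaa
TMSB4X: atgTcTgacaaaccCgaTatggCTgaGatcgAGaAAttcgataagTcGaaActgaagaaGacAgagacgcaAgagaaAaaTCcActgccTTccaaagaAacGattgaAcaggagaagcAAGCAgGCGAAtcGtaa
The thymosin pair was 72.6% identical and shared no stretch longer than 10 bases, so no error-free read of 50 bases within the coding sequence fits both. Pseudogene copies are the closer relatives of some members. In GENCODE 29, 10.3% of the 50-base windows of the ACTB transcript also occurred in the transcript of another gene, against 9.74% for TMSB4X, 8.86% for PFN1, 6.60% for FSCN1, 3.58% for ACTG1, 2.58% for ACTN4, 2.24% for TMSB10, 0.912% for ACTN1, 0.383% for CFL1 and 0.0118% for FLNA. Counting only copies that the files also list, the share was 4.27% for ACTB, 0.912% for ACTN1, 0.692% for ACTN4, 0.453% for ACTG1, 0.0118% for FLNA and 0 for the other 5 members. Whether the annotation used for the files held the remaining copies is not given in the sources used here.

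The libraries held between 926376 (HD) and 7118545 (LD) assigned reads. A ribosomal RNA entry, RNA5-8S5, took 76.9 to 79.6% of them at low density and 51.5% in HD, which left 449661 reads on all other genes in HD and 1100967 to 1645539 in the other 4 libraries. HD also had a read on 20113 genes, against 13469 to 15080 at low density. Of 8 mesenchymal markers 7 matched a gene in the files, and 6 of these had reads in every library. The summed level of the 7 was 6622 to 9181 TPM at low density and 2647 TPM in HD. Not every marker followed this sum. In HD, COL6A1 (22.4 TPM) and COL6A2 (56.9 TPM) lay within their low-density ranges of 10.9 to 28.4 and 20.6 to 61.8 TPM. TPM (transcripts per 1000000) is a level corrected for transcript length, with the values of each library rescaled to that total. NT5E, a mesenchymal surface enzyme, had 0 reads in all 4 low-density libraries and 1 read in HD. The summed level of 4 leukocyte markers was 0 to 1.30 TPM at low density and 129 TPM in HD (CD79A at 0 in every library). PTPRC held 36 of their 46 HD reads. That of 4 muscle markers was 0 to 2.56 and 34.4 TPM (CNN1 at 0 in HD), with MYH11 holding 26 of 29 HD reads. That of the 4 epithelial markers found was at most 27.6 and then 57.0 TPM (EPCAM and ESRP1 at 0 at low density). CDH1 held 34 of their 51 HD reads, while KRT19 in HD (18.0 TPM) lay below LD (27.6 TPM). The 3 olfactory or neural markers summed to at most 1.30 TPM at low density and 0 in HD. In a bulk sample fewer cells of a type and less RNA per cell cannot be told apart, and the part of these genes, of depth and of RNA5-8S5 in the results below was not tested.

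Most of these genes were among the abundant RNAs of the low-density libraries. Together the 10 members took 2.62% of the reads outside RNA5-8S5 at LD, 2.64% with IL-6, 2.53% with IL-8 and 2.61% at RM, but 0.351% at HD. Their summed level was 21231 TPM at LD, 19757 with IL-6, 18129 with IL-8, 18395 at RM and 4961 at HD. The 4 low-density libraries lay close together and HD lay apart. TMSB10 ranked between position 7 and position 8 of all genes at low density and at position 36 in HD, while ACTN1 ranked between 267 and 365 at low density and at 2630 in HD.

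**Figure D1:**
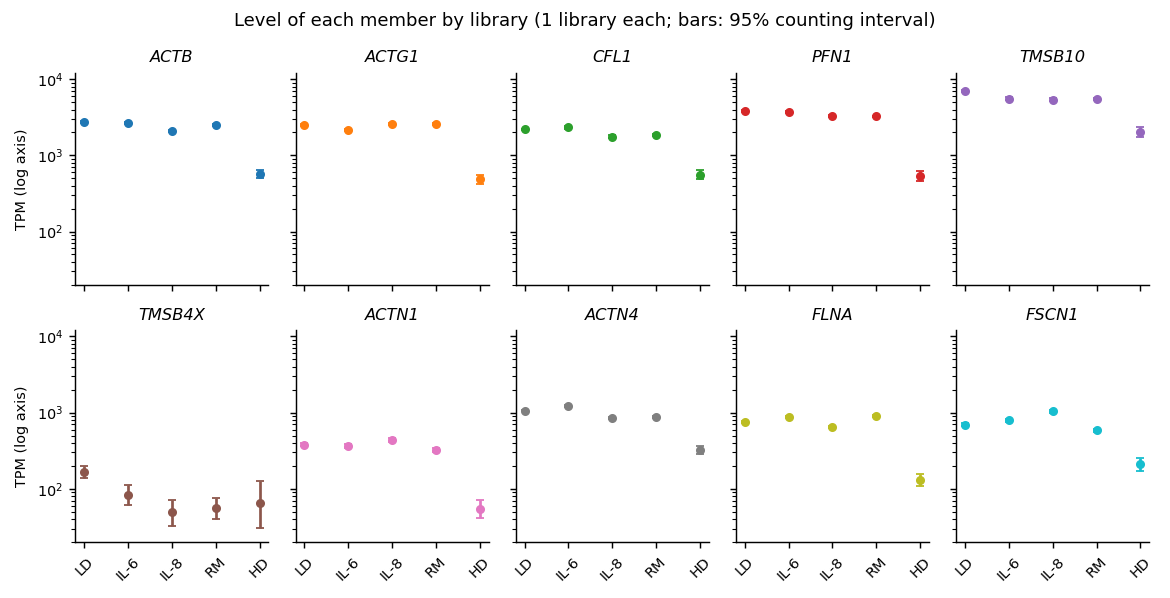
Level of each of the 10 genes in TPM (log axis) in the 5 libraries, 1 point per library, with bars for the exact 95% Poisson interval of the read count. For 9 genes HD is the lowest point and its bar meets no other, whereas for TMSB4X the HD point (65.9 TPM) lies within the range of the IL-8, RM and IL-6 points.

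ACTB, the beta-actin monomer, stood at 2725 TPM at LD, 2643 with IL-6, 2066 with IL-8, 2511 at RM and 569 at HD, from 6733, 4484, 3803, 6004 and 241 reads in that order. The low-density values spanned 1.32-fold, and HD lay below all of them. ACTG1, the gamma-actin monomer, stood at 2501 TPM at LD, 2151 with IL-6, 2580 with IL-8, 2563 at RM and 490 at HD, from 6787, 4015, 5219, 6750 and 217 reads. Its low-density values spanned 0.26 log2 units, with IL-6 the lowest.

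Both monomer genes were expressed at nearly the same level, but their balance differed between libraries. A ratio within a library needs no scaling between libraries. The ratio of ACTG1 to ACTB reads was 1.01 at LD (95% interval 0.974 to 1.04), 0.895 with IL-6 (0.858 to 0.935), 1.37 with IL-8 (1.32 to 1.43), 1.12 at RM (1.09 to 1.16) and 0.900 at HD (0.746 to 1.09). These intervals, like all that follow, are 95% intervals that cover counting error only and compare libraries, not conditions, and amplified reads without molecular identifiers are not independent molecules. The 4 low-density ratios had intervals that did not overlap, with IL-8 the highest, and the HD interval overlapped those of LD and IL-6 and, at its upper edge, that of RM.

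CFL1 encodes cofilin, which severs filaments and returns their monomers. It stood at 2189 TPM at LD, 2328 with IL-6, 1764 with IL-8, 1856 at RM and 558 at HD. PFN1, the profilin that delivers monomers to growing ends, stood at 3797 TPM at LD, 3761 with IL-6, 3327 with IL-8, 3243 at RM and 539.5 at HD, from 6930, 4716, 4525, 5731 and 167 reads. PFN1 had the narrowest low-density range of the 10 genes, 1.17-fold. In reads, PFN1 exceeded CFL1 by 1.51 to 1 at LD (1.45 to 1.57), 1.41 with IL-6 (1.34 to 1.47), 1.64 with IL-8 (1.56 to 1.72) and 1.52 at RM (1.46 to 1.58). In HD the ratio was 0.839 (0.679 to 1.04), an interval below those of the other 4 libraries.

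TMSB10, a beta-thymosin that holds monomers, was the most abundant member in every library. It stood at 6966 TPM at LD, 5553 with IL-6, 5374 with IL-8, 5478 at RM and 2019 at HD, from 3847, 2107, 2211, 2929 and 189 reads. It alone made up 32.8% of the members' summed TPM at LD, 28.1% with IL-6, 29.6% with IL-8, 29.8% at RM and 40.7% at HD. PFN1 went the other way, from 17.6 to 19.0% of the summed TPM at low density to 10.9% in HD.

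**Figure D2:**
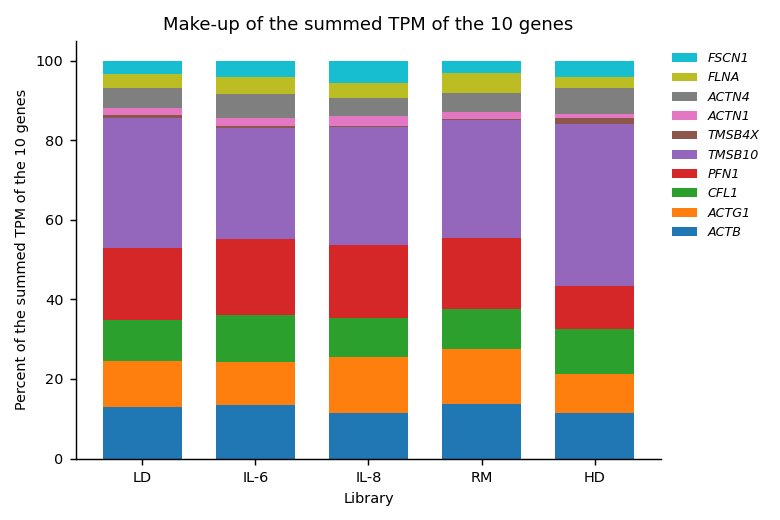
Share of each of the 10 genes in their summed TPM, in percent, 1 stacked bar per library. The 4 low-density bars have similar divisions, and in HD the TMSB10 segment (40.7%) is wider and the PFN1 segment (10.9%) narrower than in any other bar.

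TMSB4X, the other thymosin, was the member that differed most among the low-density libraries. It stood at 167 TPM at LD, 83.8 with IL-6, 49.2 with IL-8, 55.4 at RM and 65.9 at HD, from 128, 44, 28, 41 and 9 reads. LD was the highest library. As a share of the reads outside RNA5-8S5, TMSB4X in IL-6 was 0.514 times that in LD (0.356 to 0.729), in IL-8 0.321 times (0.205 to 0.486) and in RM 0.367 times (0.252 to 0.526). The RM and IL-8 shares were not resolved from each other at this depth (ratio 1.14, 0.691 to 1.92), nor were those of RM and IL-6 (0.715, 0.456 to 1.12). TMSB10 thus exceeded TMSB4X by 30.1 reads to 1 at LD (25.2 to 36.1), 47.9 with IL-6 (35.5 to 66.1), 79.0 with IL-8 (54.5 to 119), 71.4 at RM (52.5 to 99.8) and 21.0 at HD (10.8 to 46.6).

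The ratio of the thymosins was higher in IL-8 and RM than in LD and HD, beyond the counting intervals. TMSB4X is also the member with the fewest reads, so its HD level rests on 9 of them.

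ACTN1 and ACTN4 encode the alpha-actinins of non-muscle cells. ACTN1 stood at 377 TPM at LD, 367 with IL-6, 436 with IL-8, 325 at RM and 54.5 at HD. ACTN4 stood at 1066, 1212, 846, 863 and 324 TPM in the same order. ACTN4 reads exceeded those of ACTN1 by 2.81 to 1 at LD (2.67 to 2.97), 3.22 with IL-6 (3.02 to 3.44), 2.20 with IL-8 (2.06 to 2.35), 2.98 at RM (2.80 to 3.17) and 4.27 at HD (3.21 to 5.77). The pair was thus most even in IL-8, and the interval of HD overlapped only that of IL-6.

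FLNA encodes filamin A, which joins filaments into a network and links them to membrane proteins. It stood at 749 TPM at LD, 866 with IL-6, 646 with IL-8, 914 at RM and 131 at HD, from 4843, 3415, 3049, 4821 and 136 reads. RM was the highest library in TPM, although RM minus IL-6 turned sign with quantile normalization (-0.02), and IL-8 was the lowest at low density. In share of reads, RM was 1.14 times LD (1.10 to 1.19) and 1.24 times IL-8 (1.18 to 1.29). The reads behind 1 TPM of FLNA, relative to ACTB, ran from 2.21 in RM to 2.62 in LD, and those of ACTN1 from 1.69 in IL-8 to 2.56 in HD, so the transcript lengths assigned to these genes differed between libraries and their TPM ratios differ from their read ratios.

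FSCN1 encodes fascin, the protein that packs filaments into the bundles of finger-like protrusions. It stood at 694 TPM at LD, 791 with IL-6, 1041 with IL-8, 585 at RM and 208 at HD, from 2309, 1783, 2453, 1810 and 111 reads. IL-8 was the highest of the 5 libraries and RM the lowest of the low-density ones. In share of reads, IL-8 was 1.56 times LD (1.47 to 1.65), IL-6 was 1.15 times LD (1.08 to 1.23), RM was 0.899 times LD (0.845 to 0.957) and RM was 0.576 times IL-8 (0.542 to 0.613). The order of IL-8 above LD and of IL-8 above RM held under each scaling and pseudocount tried, with IL-8 minus LD between 0.46 and 0.99 and RM minus IL-8 between -0.89 and -0.54 on the log2 scale, whereas the sign of RM minus LD did not (-0.29 to 0.45).

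Within a library, the order of the members from TMSB10 and PFN1 at the top to ACTN1 and TMSB4X at the bottom was nearly the same at low density. In RM the intervals of ACTG1 and ACTB overlapped, as did those of FLNA and ACTN4. In HD the neighbours ACTB, CFL1, PFN1 and ACTG1 were not resolved from each other, and neither was TMSB4X from FLNA or from ACTN1.

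The comparisons of single libraries ask how the members differed with each cytokine and with density. Each difference is one of log2(TPM + 1), which understates the change of scarce genes, and distances of at least 1 unit were counted over the 21163 genes that reached 1 TPM in any library. All 10 members passed this filter. The 4 comparisons with LD share that library, and its values enter each of them.

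With IL-6 alone, 0 of 10 members were higher and 0 were lower than in LD by at least 1 unit, where 9.84% of all genes tested were higher and 7.47% lower. The members' median difference was -0.03, against 0 over all genes. TMSB4X came nearest at -0.98, and the others lay between -0.33 (TMSB10) and 0.21 (FLNA).

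With IL-8 alone, 0 members were higher (7.99% of all genes) and 1 was lower, against 16.4% of all genes. The lower one was TMSB4X, at -1.74, and it stayed below LD under each scaling and pseudocount tried (-1.76 to -1.27). The members' median was -0.26 against 0 over all genes, but its sign turned with median-ratio scaling and with trimmed mean of M values (TMM) scaling. FSCN1 was the highest member at 0.58, and ACTB the lowest after TMSB4X at -0.40, with the sign of ACTB also turning (-0.45 to 0.07).

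In RM, where both cytokines were present, 0 members were higher (6.44% of all genes) and 1 was lower, against 20.4% of all genes. TMSB4X was again the lower one, at -1.57, with a range of -1.59 to -0.83 over the scalings and pseudocounts. The other members lay between -0.35 (TMSB10) and 0.29 (FLNA), with a median of all 10 at -0.23 against 0 over all genes. Only FLNA (0.05 to 0.79) and TMSB4X kept their sign under each of these settings, so the direction of the other 8 in RM depended on the scaling.

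RM was also set beside each cytokine alone. Against IL-6, 0 members were higher (6.34% of all genes) and 0 lower (22.7%), with a median of -0.19 against -0.15 over all genes, and the median of all genes was 0 with TMM, median-ratio or quantile scaling. Against IL-8, 0 members were higher (9.87%) and 0 lower (14.9%), with a median of 0.03 against 0. The widest of these differences was FSCN1 against IL-8 at -0.83, followed by TMSB4X against IL-6 at -0.59 and FLNA against IL-8 at 0.50. Those of FSCN1 and FLNA kept their sign under each scaling and pseudocount (FLNA 0.32 to 0.56), and that of TMSB4X did not (-0.62 to 0.17).

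The spread of the members over the 4 low-density libraries depended on the scaling. In TPM, the distance from the highest to the lowest library had a median of 0.41 log2 units over the members, 1.06 over all genes tested and 0.92 over the 1097 genes with a mean of at least 100 TPM. TMSB4X (1.74) was the only member above the medians of all genes and of the abundant genes, FSCN1 followed at 0.83, and PFN1 was the lowest at 0.23. With median-ratio scaling the median over the members was 0.73, that over all genes 1.22 and that over the abundant genes 1.04, and ACTG1 spanned 1.03 units, FLNA 0.79 and ACTB 0.70. These are descriptions, since no test was made.

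**Figure D3:**
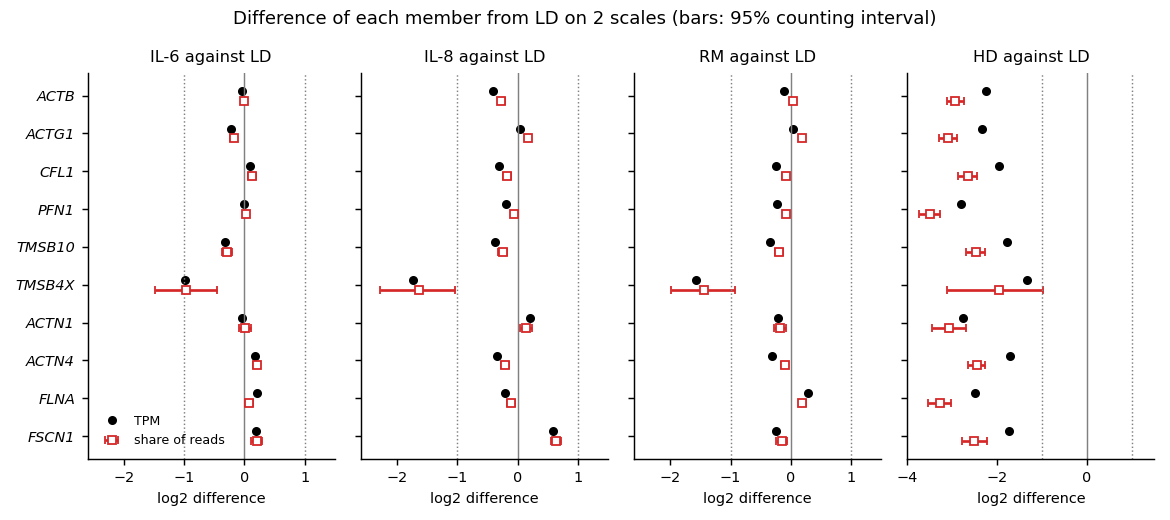
Difference of each of the 10 genes from LD, in log2 units, in the IL-6, IL-8, RM and HD libraries. Filled circles are log2(TPM + 1) differences, open squares are log2 ratios of the share of reads outside RNA5-8S5 with their 95% counting interval, and dotted lines mark 1 unit. TMSB4X lies apart to the left in IL-8 (-1.74) and RM (-1.57), FSCN1 lies to the right in IL-8 (0.58), and all 10 genes lie left of -1 in HD, while most signs in the IL-8 and RM panels turn with other scalings.

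In HD, all 10 members were lower than in LD by at least 1 unit and 0 were higher, where 17.9% of all genes tested were lower and 61.9% higher. PFN1 had the largest difference (-2.81, 7.04-fold lower in TPM), then ACTN1 (-2.77), FLNA (-2.50), ACTG1 (-2.35), ACTB (-2.26), CFL1 (-1.97), TMSB10 (-1.79), FSCN1 (-1.73), ACTN4 (-1.71) and TMSB4X (-1.33, 2.53-fold lower). The members' median was -2.11 against 1.86 over all genes.

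On shares of reads the members lay further from LD than on TPM. PFN1 took an 11.3-fold smaller share in HD (9.73 to 13.3), FLNA 9.73-fold (8.21 to 11.6), ACTG1 8.55-fold (7.47 to 9.83), ACTB 7.63-fold (6.71 to 8.72) and TMSB4X 3.89-fold (1.98 to 8.69). The intervals of PFN1 and ACTB did not overlap, so the members were not lower by one common factor. All 10 were lower under each scaling and pseudocount. TMSB4X was the exception to the threshold, at -0.82 when the counts were scaled to the whole library (CPM).

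Abundant genes as a class were lower in HD, and this background bears on the members. The class was cut on the mean over the 5 libraries, 4 of which are low density. A gene high at low density thus entered it more readily than a gene high in HD alone. The fall of the class in HD is therefore partly set by how it was chosen. Of the 1097 genes with a mean of at least 100 TPM, 67.4% were lower by at least 1 unit and 15.7% higher, with a median of -1.73. Among these genes, the share with a still lower difference was 21.8% for PFN1, 22.4% for ACTN1, 29.3% for FLNA, 33.1% for ACTG1, 35.8% for ACTB, 42.8% for CFL1, 48.2% for TMSB10, 50.0% for FSCN1, 50.5% for ACTN4 and 59.5% for TMSB4X. The members therefore lay within the lower and middle part of the abundant genes and not at their edge. The median of all genes was itself sensitive to scaling, at 1.32 with TMM and 0.39 with quantile normalization. Relative to it the members' median was -3.98 as first given, -4.69 with TMM, -2.35 with quantile normalization and -5.06 with a pseudocount of 0.1. Among genes with at least 1 TPM in each library the median of all genes turned to -0.30, and relative to it the members stood at -1.82. It was also raised by genes with 0 reads in LD, and with these set to the floor of 3 reads 54.6% of all genes were higher, 14.9% lower, and the median was 1.31.

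**Figure D4:**
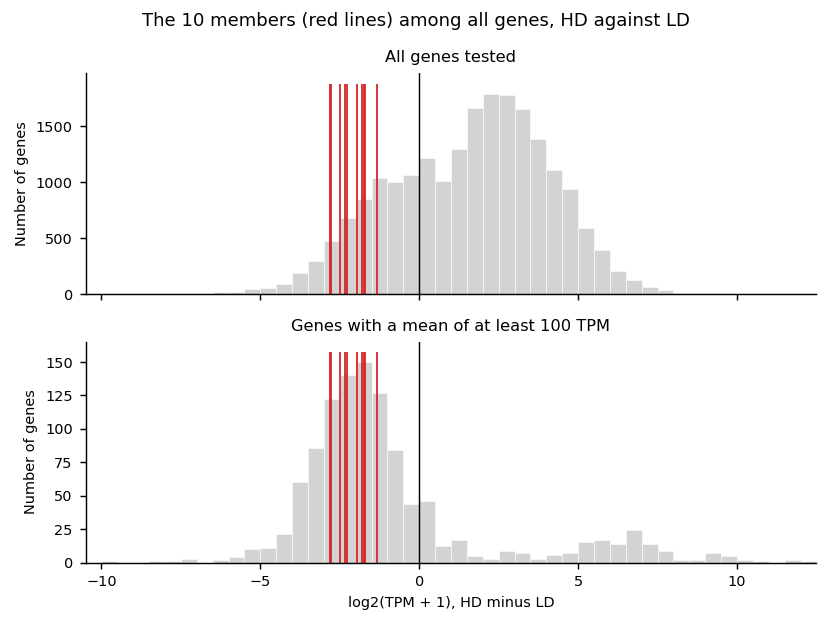
Number of genes by log2(TPM + 1) difference of HD from LD (grey bars), over the 21163 genes tested (top) and the 1097 genes with a mean of at least 100 TPM (bottom), with the 10 genes as red lines. The red lines, from -2.81 to -1.33, lie in the lower tail of all genes and near the peak of the abundant genes, where the median is -1.73.

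The wider actin machinery was read from 6 lists of genes by function, 75 genes in all, of which 73 were tested. By at least 1 unit, IL-6 had 1 of these genes higher than LD (TESK1, a kinase that phosphorylates cofilin) and 1 lower (ACTN2, 10 reads at LD and 0 with IL-6). IL-8 had 5 higher (ACTA2, CAP2, GSN, FMNL2 and SRF) and 15 lower, RM 4 higher (CORO1C, SRF, LASP1 and TMSB15A) and 19 lower, and HD 17 higher and 37 lower. RM had 4 higher (ACTN2, SRF, LASP1 and TMSB15A) and 17 lower than IL-6, and 7 higher and 13 lower than IL-8. The lower genes were 20.5% of the list genes in IL-8 and 26.0% in RM, beside 16.4 and 20.4% of all genes. For HD these shares were 50.7 and 17.9%. Among the 1097 genes with a mean of at least 100 TPM, 67.4% were lower for HD, 11.8% for RM and 6.29% for IL-8. As first given, the list share thus lay above both backgrounds for IL-8 and RM. For HD it lay above that of all genes and below that of the abundant genes. The order for IL-8 and RM did not hold in every setting. With median-ratio scaling 7 of the 73 genes were lower in RM, beside 15.3% of all genes. With quantile normalization 6 of the 73 were lower in IL-8, beside 14.9% of all genes. Where a count was 5 or fewer its genes are named here and below, and those outside the rule for naming genes were picked after their values were seen. These counts moved with the scaling and pseudocount. Over these settings the lower genes numbered 6 to 18 in IL-8, 7 to 23 in RM and 33 to 48 in HD, and the higher ones 4 to 8, 2 to 9 and 5 to 18. The genes past 1 unit in every setting were ACTA2, CAP2, GSN and SRF (higher) and CFL2, SSH1 and TESK1 (lower) in IL-8, and CORO1C and SRF (higher) and CORO1B and EVL (lower) in RM. In HD 31 genes were lower in every setting and ACTG2, SSH2 and FHL2 were higher. The median over the 73 genes was -0.66 in RM, where that of the 10 members was -0.23, and -1.16 in HD, where that of the members was -2.11. With genes at 0 reads set to the floor, the counts were 1 higher and 0 lower in IL-6, 5 and 15 in IL-8, 2 and 19 in RM, and 16 and 35 in HD with a median of -0.82. RM then had 2 higher and 17 lower than IL-6, and 5 higher and 13 lower than IL-8.

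Actins of muscle and other tissues were scarce beside ACTB and ACTG1. ACTA2, the smooth muscle alpha-actin, stood at 32.0 TPM at LD, 23.3 with IL-6, 86.0 with IL-8, 8.74 at RM and 2.47 at HD, from 59, 33, 136, 18 and 1 reads. In share of reads it was 3.38 times LD in IL-8 (2.48 to 4.68) and 0.350 times LD in RM (0.194 to 0.602), so IL-8 alone and RM lay on opposite sides of LD, as they did under each scaling and pseudocount. ACTG2, the smooth muscle gamma-actin, had 0 reads in all 4 low-density libraries and 9 in HD. ACTA1, the skeletal muscle actin, had at most 2 reads in any library. ACTC1, the cardiac actin, and ACTBL2 had 2 and 1 reads in HD and 0 elsewhere, so of the 4 genes of this list counted as higher in HD only ACTG2 had more than 3 reads.

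Genes of filament turnover and monomer supply were mostly lower in HD, 13 of 17 by at least 1 unit and 1 higher, TMOD3, which caps slow-growing ends (11 and 1 with genes at 0 set to the floor). Their median was -1.97, or -1.75 with the floor. Over the settings 10 to 15 were lower in HD and 0 to 1 higher, with TMOD3 at 0.14 with TMM. In IL-8, 8 were lower (2 to 8 over the settings) and 2 higher (CAP2 and GSN, in every setting). In RM 4 were lower (PFN2, CAPZA2, CORO1B and GMFB, with 2 to 5 over the settings) and 2 higher (CORO1C, and TMSB15A on 1 read). CAPZB, which caps growing ends, stood at 830 TPM at LD, 649 with IL-6, 519.6 with IL-8, 580 at RM and 53.5 at HD. CAP1, which works with cofilin, stood at 232, 208, 109, 121 and 24.7 TPM in the same order. CAPG, a capping protein of the gelsolin family, stood at 228, 356, 131, 295 and 78.6 TPM.

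Among the other crosslinkers, 6 of 14 were lower and 4 higher in HD (ACTN3, PLS1, PLS3 and MARCKS), with a median of -0.38. The 4 higher ones had 2, 2, 11 and 4 reads in HD, and 0 to 4 were higher over the settings, with PLS3 turning to -0.91 with TMM and PLS1 to -0.63 with quantile normalization. In RM 2 were lower (TAGLN and LIMA1, with 0 to 3 over the settings) and 0 higher. TAGLN2, a transgelin that binds filament sides, stood at 1891 TPM at LD, 2037 with IL-6, 2210 with IL-8, 2172 at RM and 187 at HD. TAGLN, the smooth muscle transgelin, stood at 819, 673, 617, 255 and 73.3 TPM in the same order. In RM the share of TAGLN reads was 0.344 times that of LD (0.306 to 0.386), a distance that kept its sign under each scaling (-1.69 to -0.94), whereas TAGLN2 was 1.27 times LD (1.21 to 1.33). CALD1, caldesmon, which steadies filaments, stood at 295, 331, 215, 213 and 71.5 TPM.

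Of 15 genes that link filaments to adhesions and the membrane, 9 were lower and 0 higher in HD, with a median of -1.19, and 5 were lower in RM (VCL, ENAH, EVL, TES and RDX, of which only EVL was lower in every setting, with 2 to 5 lower over the settings) and 1 higher. The higher one was LASP1, with 11 reads in RM and 0 in the other libraries, and at the floor it no longer counted. For HD, 8 to 12 of the 15 were lower over the settings and 0 to 1 higher. VASP, which helps filaments elongate, stood at 309 TPM at LD, 291 with IL-6, 203 with IL-8, 461 at RM and 128 at HD. Its share of reads in RM was 1.64 times LD (1.51 to 1.80) and 2.14 times IL-8 (1.92 to 2.38). PDLIM7 stood at 477, 493, 527, 571 and 52.8 TPM, and moesin (MSN), which ties filaments to the membrane, at 385, 281, 253, 299 and 84.1 TPM.

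Formins and the kinases and phosphatases of the cofilin pathway were mixed in HD, with 5 of 15 lower (RHOA, ROCK1, ROCK2, TESK1 and FMNL2) and 6 higher and a median of 0.24. The 5 lower genes were lower in every setting, but 1 to 6 were higher over the settings, with only SSH2 in all, and the sign of the median turned (-0.85 to 0.71). In RM 4 were lower (RHOA, FMNL1, SSH1 and SSH2) and 0 higher, with 1 to 6 lower over the settings and none of these 4 in all. DIAPH1, a formin that nucleates filaments with profilin, stood at 224 TPM at LD, 200 with IL-6, 155 with IL-8, 119 at RM and 609 at HD, from 1047, 567, 496, 481 and 355 reads. It was higher in HD by 1.44 units, but on TMM-scaled reads the sign turned (-0.27). RHOA, the GTPase that activates DIAPH1, stood at 382, 339, 224, 182 and 43.6 TPM, and FMNL1, another formin, at 123, 107, 78.1, 58.5 and 145 TPM. In share of reads, however, FMNL1 in HD was 0.396 times LD (0.291 to 0.530). Its HD difference from LD ran from -1.91 with TMM to 0.27 with quantile normalization.

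Free actin monomers hold back the MRTF coactivators of serum response factor (SRF), so this list joins the members to the transcription of actin genes. In RM 5 of its 9 genes were lower (TAGLN, VCL, CTGF, FHL2 and MKL1) and 1 higher, with a median of -1.16. Over the settings 1 to 5 were lower, none of the 5 in all, and the median ran from -1.27 to -0.48. In HD 5 were lower (TAGLN, VCL, CTGF, CYR61 and MYH9) and 2 higher (FHL2 and MKL2), with a median of -1.37. Over the settings 4 to 6 were lower in HD and 1 to 3 higher, with only FHL2 higher in all and MKL2 at 0.85 with quantile normalization. The one higher in RM was SRF itself. It stood at 31.0 TPM at LD, 58.0 with IL-6, 69.0 with IL-8, 138 at RM and 18.6 at HD, from 153, 192, 255, 639 and 18 reads. In share of reads, RM was 4.79 times LD (4.01 to 5.75), IL-8 2.45 times (2.00 to 3.01) and IL-6 1.88 times (1.51 to 2.33). RM exceeded IL-8 (1.96 times, 1.69 to 2.27) and IL-6 (2.55 times, 2.17 to 3.02), and SRF in RM lay above LD under each scaling and pseudocount (1.99 to 2.85).

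No other gene of this list, most of them known targets of SRF, was higher in RM by 1 unit. MYH9, non-muscle myosin heavy chain, stood at 567 TPM at LD, 442 with IL-6, 510 with IL-8, 404 at RM and 88.8 at HD. FHL2, a LIM-domain cofactor, stood at 45.3, 40.7, 26.5, 18.7 and 203 TPM, and the values of TAGLN are given above. ACTB and ACTG1, which are targets too, differed from LD in RM by -0.12 and 0.04, values whose sign depended on the scaling.

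The promoters of the members were searched for the CArG box, the sequence that SRF binds, on both strands. In the RefSeq promoter set (GRCh38.p14, from 250 bases before to 50 after each start), 8 members had 12 promoters, and 3 of the 12 held a match, against 454 of 35116 promoters in all (1.29%). The matches belonged to ACTG1, FLNA and 1 start of ACTN1. The first pair are shown because both boxes lie 94 bases before the start, with the box in capitals and both read 5′ to 3′ on the minus strand. The ACTG1 window is at chr17:81512859-81512918 and the FLNA window at chrX:154374694-154374753, both upstream of exon 1.
ACTG1: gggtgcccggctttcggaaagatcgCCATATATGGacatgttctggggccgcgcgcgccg
FLNA: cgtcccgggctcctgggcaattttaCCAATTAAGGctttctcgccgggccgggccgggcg
A match describes these letters and does not show that the site is used. ACTB and FSCN1 were not in this table. In TPM, FLNA was highest in RM and ACTG1 was highest in IL-8, with RM close to it, but ACTG1 in RM minus LD was 0.04 and turned sign with quantile normalization (-0.04). ACTN1, the other member with a match, had its lowest low-density level in RM (325 TPM, -0.21 from LD), and this sign too depended on the scaling (-0.32 to 0.42).

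The genes whose pattern was most like the mean of the members, by root mean square distance over the 4 differences from LD, were IGF2R (0.109 log2 units), RPL6 (0.124), DRAP1 (0.137), PSAP (0.142) and FTH1 (0.154). They came from 1710 other genes with at least 20 reads in every library. The mean of the members was -0.10 with IL-6, -0.27 with IL-8, -0.29 at RM and -2.12 at HD. TMSB4X, at -0.98 with IL-6, -1.74 with IL-8 and -1.57 at RM, lay well below the other members there and lowered this mean. A gene near the mean is therefore not always near the typical member. IGF2R stood at -0.19, -0.40, -0.17 and -2.19, and RPL6, a ribosomal protein gene, at -0.13, -0.41, -0.42 and -2.28.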

How the data were processed

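RNA from 5 HT1080 cultures was primed on poly-A, amplified as a whole cDNA pool and made into Nextera XT libraries, which do not mark strand. The submitters' processing notes name CASAVA 1.4, Bowtie2 2.3.1, RSEM 1.2.25, hg19 and GRCh37; the annotation and settings are not given in the sources used here. The authors deposited an estimated count of reads per gene, held as whole numbers and not normalized, and a TPM value per gene, corrected for transcript length and library total. TPM was rescaled to 1000000 per library and compared as log2(TPM + 1). With 1 library per condition no test was run, and a pseudocount of 1, a filter of 1 TPM in at least 1 library and a threshold of 1 log2 unit were used. Read shares exclude RNA5-8S5; their ratios have exact conditional 95% Clopper-Pearson intervals and counts have exact Poisson intervals. The floor is 3 reads, 1.82 to 6.67 per 1000000 reads outside RNA5-8S5. Alternatives were pseudocounts of 0.1 and 5, 5 other scalings, 3 other filters and a threshold of 2. edgeR 4.0.16 (R 4.3.3) gave TMM factors only.

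The members and lists were chosen with earlier results of these data known. The genes named by rule are the members, the 3 genes of each list with the highest mean TPM, and the 5 genes nearest the members' mean profile. Other genes of the lists, SRF among them, were named after their values were seen. Sequences came from GENCODE 29 and RefSeq on GRCh38, and gene coordinates on the build of the files were not used here. Scripts (scipy 1.17.1, pandas 2.3.3 and numpy 2.4.6 on Python 3.11.15) were tested on simulated data.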

Additional observations from a re-analysis of the deposited data

How the results depend on the processing

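The counts of members past the threshold stayed within 1.5 times the first value in 125 cases over the 6 comparisons and 11 alternatives, and moved further in 7. All 10 members passed each of the 3 other filters, so under these the counts could not change. Those cases are among the 125 and do not bear on how stable the counts are. TMM scaling gave 1 member lower in IL-6 (TMSB4X, -1.03) and 0 lower in RM, and median-ratio scaling gave 0 lower in RM and 1 higher in RM than in IL-6 (ACTG1, 1.03). A threshold of 2 log2 units left 0 lower in IL-8, 0 lower in RM and 5 lower in HD. The members' median turned positive with TMM in IL-8 (0.064), RM (0.33) and RM minus IL-6 (0.37), and with median-ratio scaling in the same comparisons (0.20, 0.51 and 0.51). Its range was -0.08 to 0.05 with IL-6, -0.33 to 0.20 with IL-8, -0.25 to 0.51 at RM, -3.38 to -1.72 at HD, -0.28 to 0.51 for RM minus IL-6 and -0.02 to 0.33 for RM minus IL-8. The number of members with the same sign in every setting was 6 with IL-6, 2 with IL-8, 2 at RM, 10 at HD, 1 for RM minus IL-6 and 5 for RM minus IL-8. The cause of these shifts was not tested. Over all genes, the split of higher and lower in HD went to 36.4 and 34.0% with quantile normalization and to 28.7 and 36.2% when each library had to reach 1 TPM, and in RM to 16.4 and 15.3% with median-ratio scaling. Leaving out a library and any batch term were not possible with 1 library per condition. No paired analysis was possible because each condition has 1 library. Depth limits HD most, where 3 reads are 6.67 per 1000000 outside RNA5-8S5 and TMSB4X has 9 reads.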

Other observations

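Near copies of some members also had reads. POTEF, a gene that carries an actin-like end, had 68 reads at LD, 70 with IL-6, 35 with IL-8, 56 at RM and 32 at HD, and POTEM, of the same family, had 67, 71, 42, 130 and 67. In HD these 2 genes held 32 and 67 reads beside 241 on ACTB. CFL1P1, a cofilin pseudogene, had 2, 1, 0, 1 and 29 reads in the same order, beside 199 on CFL1 in HD. PFN1P2, a profilin pseudogene, had 18, 6, 6, 9 and 12. TMSB15B, a paralogue of the thymosins, had 0, 1, 2, 2 and 10, and in HD its 10 reads stood beside 9 on TMSB4X. ACTN1-AS1, antisense to ACTN1, had 4 reads in HD and 0 elsewhere, and the library kit does not mark strand. Reads that fit a member and a copy were divided by the authors' estimation, and the effect of this on the members was not tested.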
